A study of Homo sapiens with 12 samples.

Results

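Genes of cholesterol and fatty acid synthesis were followed in A172 cells, an established human glioblastoma line, after siRNAs against uc.110. The set holds 37 listed genes, chosen by name for their place in the 2 lipid pathways, with earlier results of these data known. Of these genes 36 had a usable interval among the 45011 gene intervals kept. Each was taken as the protein-coding interval that carries its name, and an interval reaching more than 100 kb past its gene was left out. This removed ACACA, the acetyl-CoA carboxylase gene, whose interval on chromosome 17 runs 35764000 bp beyond it. The sterol arm holds 18 synthesis genes and 10 genes of sterol sensing and transport, and the fatty acid arm holds 8 used genes of 9 listed.

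RNA was sequenced from 12 libraries in 3 groups of 4. Cells received siRNA-2 against uc.110, siRNA-1 against uc.110, or a scrambled control siRNA. uc.110 is an ultraconserved region, a stretch of genome kept without change between human and rodents, and the study asked which genes change when it is knocked down. All wells held wild-type A172 cells in serum-containing medium and received 3 µL of siRNA (20 µM) for 6 h. The carrier was Lipofectamine 2000, a lipid reagent given to every group, and RNA was collected on day 2. Sequences of the siRNAs were not given here, and all results come from a single cell line. In bulk RNA, fewer cells of a type and less RNA per cell cannot be told apart.

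Cholesterol is built from acetyl-CoA through mevalonate and isoprenoid diphosphates to squalene, which is closed to lanosterol and trimmed to cholesterol. When sterol in the endoplasmic reticulum is low, the escort protein SCAP carries the SREBP transcription factors to the Golgi for cleavage, and they then switch on the genes of both arms, while INSIG proteins hold the complex back when sterol is high. The brain makes its own cholesterol, and glioblastoma cells are known to take up sterol from their surroundings as well as to make fatty acids.

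Each library had 42788158 to 52957897 counts over the kept intervals, and every used gene of the set passed the filter on low counts. Whether replicate libraries stem from separate cultures is not stated, so the p-values reflect only the spread between these samples, possibly technical. The target region itself, on chromosome 2 from 236162738 to 236162980, held between 0 and 4 reads in the siRNA-2 libraries, 0 and 2 in the siRNA-1 libraries and 0 and 6 in the scrambled libraries, too few to check the knockdown. Scrambled replicate 1 alone covered 1680 intervals, where each other library alone covered 91 to 176, and ribosomal RNA took more of siRNA-1 replicate 3 and siRNA-2 replicate 2 than of the other libraries. A list of 20 type I interferon response genes moved with the groups: all 20 rose with each siRNA, IFIT2 by 2.52 with siRNA-2 and 1.46 with siRNA-1 (log2), and 8 were higher with siRNA-2 than with siRNA-1, where 29.9%, 28.6% and 15.8% of all genes were called higher. Their summed level was 6370 to 6925 CPM (read counts scaled to a common library size) with siRNA-2, 4918 to 5207 CPM with siRNA-1 and 825 to 1875 CPM in scrambled libraries, the highest of these in scrambled replicate 1. The part of that response in the lipid gene changes was not tested. Of 11 glial and mesenchymal glioma markers, 10 exceeded 1 CPM, with VIM and CD44 leading and S100B at or near 0, and the list summed to 3499 to 3667 CPM with siRNA-2, 2930 to 3282 CPM with siRNA-1 and 3832 to 4192 CPM in scrambled libraries. VIM carried that sum, with means of 1951 CPM with siRNA-2, 1689 CPM with siRNA-1 and 2641 CPM in scrambled libraries, while 6 of 10 tested members were higher and 3 lower with siRNA-2 and 5 were higher and 3 lower with siRNA-1. Over all genes 29.9% were higher and 26.1% lower with siRNA-2, and 28.6% higher and 24.9% lower with siRNA-1. Hepatocyte markers, of a cell type that leads the body in sterol synthesis, stayed at or under 0.134 CPM in sum. Hematopoietic markers summed to 307 to 338 CPM with siRNA-2, 249 to 260 CPM with siRNA-1 and 273 to 299 CPM in scrambled libraries, nearly all in CD68 and CSF1R, while the lymphocyte marker CD3E stayed at or under 0.0850 CPM. Those 2 genes differed in opposite directions, CD68 with means of 159 CPM with siRNA-2, 73.9 CPM with siRNA-1 and 38.6 CPM in scrambled libraries, and CSF1R with 162, 178 and 247 CPM in the same groups. Epithelial markers summed to 41.4 to 49.5 CPM with siRNA-2, 47.3 to 62.7 CPM with siRNA-1 and 35.6 to 44.0 CPM in scrambled libraries. KRT5 had means of 24.8, 30.7 and 12.5 CPM in the same groups. CLDN4 went the other way, with means of 20.4, 22.5 and 26.6 CPM. Of the 4 epithelial markers, all tested, 2 were higher and 2 lower with siRNA-2, and 2 were higher and 1 lower with siRNA-1. The shares over all genes are those given for the glioma markers. Of the adipocyte markers only ADIPOQ was tested, at means of 3.59 CPM with siRNA-2, 3.66 CPM with siRNA-1 and 4.86 CPM in scrambled libraries, and it was lower with each siRNA. The part of these markers in the lipid gene changes was not tested.

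Promoter sequences are shown for 4 genes on which the results turn, namely HMGCS1 and MSMO1 among the enzymes, INSIG1 as the sensor and STARD4 as the carrier. Each stretch ends upstream of the annotated exons, runs 5′ to 3′ on the strand of the gene and comes from RefSeq on GRCh38.p14. Capitals mark a CCAAT box, the binding word of the factor NF-Y that works beside SREBPs, on either strand (CCAAT or ATTGG). The stretch of HMGCS1 is chr5:43313513-43313662 on the minus strand, that of MSMO1 is chr4:165327419-165327622 on the plus strand, that of INSIG1 is chr7:155297628-155297775 on the plus strand and that of STARD4 is chr5:111512591-111512785 on the minus strand.
HMGCS1: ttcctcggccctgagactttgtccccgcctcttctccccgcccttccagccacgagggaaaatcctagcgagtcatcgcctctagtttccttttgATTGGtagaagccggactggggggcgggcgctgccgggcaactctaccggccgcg
MSMO1: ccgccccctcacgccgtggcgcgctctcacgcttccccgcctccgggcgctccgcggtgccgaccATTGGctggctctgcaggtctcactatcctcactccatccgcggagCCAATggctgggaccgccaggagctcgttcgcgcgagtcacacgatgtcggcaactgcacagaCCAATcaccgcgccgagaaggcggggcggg
INSIG1: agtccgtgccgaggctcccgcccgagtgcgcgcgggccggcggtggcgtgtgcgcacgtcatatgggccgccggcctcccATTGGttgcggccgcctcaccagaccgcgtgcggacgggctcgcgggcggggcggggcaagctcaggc
STARD4: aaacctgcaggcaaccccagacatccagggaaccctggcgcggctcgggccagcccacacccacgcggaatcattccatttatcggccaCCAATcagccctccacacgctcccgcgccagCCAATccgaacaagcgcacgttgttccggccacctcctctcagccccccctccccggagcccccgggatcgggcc

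The MSMO1 stretch holds 3 CCAAT boxes and the STARD4 stretch 2, while those of HMGCS1 and INSIG1 hold 1 each. Over windows of 300 bases, from 250 before to just past each start, a CCAAT box was found for 22 of the 32 listed genes with a promoter entry (68.8%), against 39.7% of 27305 genes in the same table. Among sterol synthesis genes it was found for 13 of 15 (86.7%), among sensing and transport genes for 4 of 9, and among fatty acid genes for 5 of 8. The E-box word CACGTG, which reads the same on both strands and cannot overlap a CCAAT box, was found for 4 of 32 (12.5%), against 8.77% of genes. The classical sterol regulatory element, spelled TCACNCCAC on either strand and able to share an end letter with a CCAAT box, was found in the window of SREBF2 alone among the 32, against 1.39% of genes. These matches describe letters in a window, and no binding was measured.

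In scrambled libraries 4 fatty acid enzymes were the most abundant of the set per length. Levels are given here as CPM per kilobase of annotated exon. Counts are per whole interval, so reads from introns or from stretches shared with other intervals may be included in this ranking. SCD led with 411 ± 26.9 (SD, n = 4), followed by ACLY at 145 ± 4.71, FADS2 at 96.2 ± 4.85 and FASN at 89.9 ± 10.96, and the last pair did not differ beyond their spread. The other fatty acid genes stood lower, FADS1 at 54.8 ± 1.90, ACSS2 at 16.1 ± 0.218, LPIN1 at 10.3 ± 0.313 and ELOVL6 at 9.32 ± 0.161. INSIG1 at 80.0 ± 6.23 and FDPS at 73.4 ± 4.09 were the highest of the sterol arm. HMGCS1 stood at 37.7 ± 2.08, MSMO1 at 25.3 ± 1.43 and SQLE at 15.8 ± 0.745. The lowest were HSD17B7 at 3.53 ± 0.211, the sterol exporter gene ABCG1 at 1.70 ± 0.0899 and TM7SF2 at 0.476 ± 0.128, whose 42 to 100 reads per library make its values the least precise.

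The siRNAs moved the set differently, though not in every gene. With siRNA-2 more genes were lower than higher against scrambled siRNA, and with siRNA-1 more were higher than lower. Between the siRNAs 25 of 36 were lower with siRNA-2 than with siRNA-1, where 16.8% of all genes were. Against the same scrambled libraries, 6 genes were called higher with each siRNA and 6 lower with each, where 22.1% and 18.5% of all genes were. Another 5 were called lower with siRNA-2 and higher with siRNA-1, where 0.807% of all genes were. Calls below are at an adjusted p under 0.05 in edgeR's quasi-likelihood test, adjusted by Benjamini-Hochberg over 24922 genes. A large share of all genes changed in every comparison, and counts are to be read against that background.

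With siRNA-2 against scrambled, 8 of 36 genes were called higher and 15 lower, where 29.9% of all genes were called higher and 26.1% lower (56.1% in all). The median log2 fold change of the set was −0.04, against 0.01 over all genes. The libraries of both groups did not overlap for 18 of the 36, where the share over all genes was 51.8%. The total of 23 calls (63.9%) was near the background. In the sterol synthesis genes 1 of 18 was higher and 8 were lower, in the sensing and transport genes 4 of 10 were higher and 4 lower, and in the fatty acid genes 3 of 8 were higher and 3 lower.

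With siRNA-1 against scrambled, 21 of 36 genes were called higher and 8 lower, where 28.6% of all genes were called higher and 24.9% lower (53.4% in all). The median log2 fold change was 0.14, against 0.01 over all genes, and 23 of 36 did not overlap, against 47.5% of all genes. Sterol synthesis genes gave 11 of 18 higher and 4 lower, sensing and transport genes 6 of 10 higher and 2 lower, and fatty acid genes 4 of 8 higher and 2 lower. Both comparisons use the same scrambled libraries, so their values are set side by side and no agreement between them is drawn.

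With siRNA-2 against siRNA-1, which uses no scrambled library, 25 of 36 genes were called lower and 4 higher, where 16.8% of all genes were called lower and 15.8% higher (32.6% in all). The median log2 fold change was −0.18, against 0.00 over all genes, and 26 of 36 did not overlap, against 31.9% of all genes. The lower calls covered 14 of 18 sterol synthesis genes, 5 of 10 sensing and transport genes and 6 of 8 fatty acid genes. The 4 higher were TM7SF2, INSIG2, NPC1 and LPIN1.

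**Figure D1:**
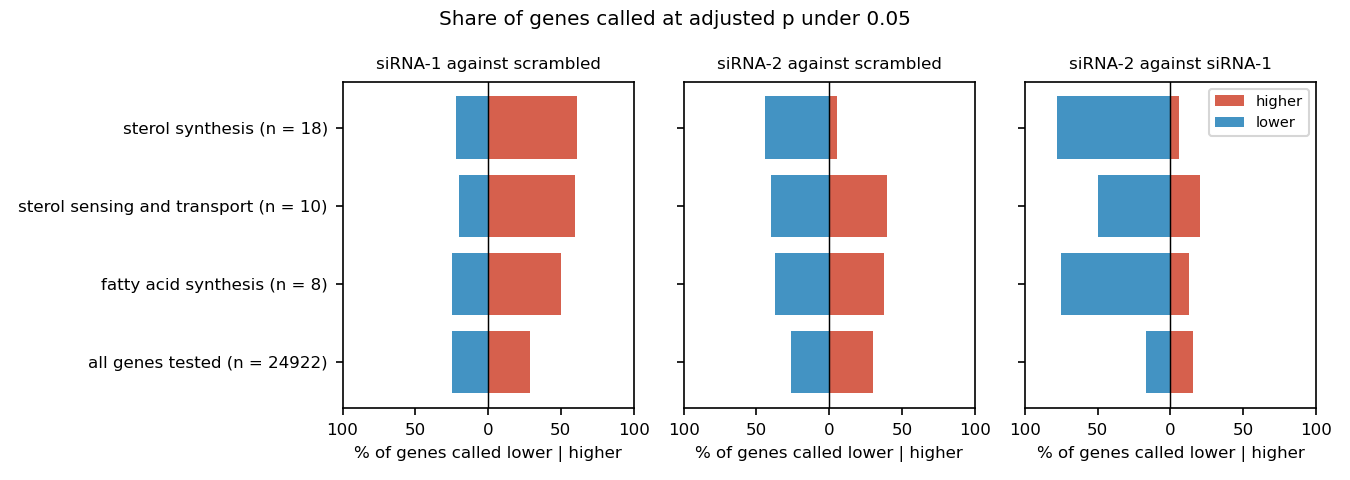
Percentage of genes called lower (left of 0, blue) and higher (right of 0, red) at an adjusted p under 0.05 in each comparison, for 18 sterol synthesis genes, 10 sterol sensing and transport genes, 8 fatty acid genes and all 24922 genes tested. In siRNA-2 against siRNA-1 the lower share is 77.8% of sterol synthesis genes and 75% of fatty acid genes, against 16.8% of all genes.

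Intervals span whole genes, and reads in a stretch that overlapping intervals share cannot be told apart, because no strand setting is stated. Only 11 genes of the set overlapped no other kept interval, namely HMGCS1, MVD, SQLE, MSMO1, NSDHL, HSD17B7, SC5D, DHCR7, INSIG1, INSIG2 and ACLY. Of these 11, 1 was higher and 6 lower with siRNA-2 against scrambled, 6 were higher and 4 lower with siRNA-1 against scrambled, and 1 was higher and 9 lower with siRNA-2 against siRNA-1. Over all genes, in the same order, 29.9% were higher and 26.1% lower, 28.6% higher and 24.9% lower, and 15.8% higher and 16.8% lower.

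Of 8 mevalonate pathway genes, 6 were lower with siRNA-2 than with scrambled siRNA and none was higher, where 26.1% of all genes were lower. With siRNA-1, 3 were higher and 2 lower, where 28.6% of all genes were higher and 24.9% lower. HMGCS1, which encodes HMG-CoA synthase at the entry to the pathway, had the lowest value with siRNA-2. HMGCS1 had 92.8, 103, 97.6 and 102 CPM in siRNA-2 libraries, 197, 196, 195 and 184 CPM in siRNA-1 libraries and 165, 186, 183 and 174 CPM in scrambled libraries. All siRNA-2 libraries lay below all others, while the siRNA-1 and scrambled ranges overlapped. With siRNA-2 against scrambled the gene fell by 0.84 on the log2 scale (SE 0.04, adjusted p = 1.2e-14), to 0.559 of the scrambled level. It rose by 0.13 (SE 0.04, adjusted p = 0.0137) with siRNA-1, and this smaller call was lost without scrambled replicate 1 (log2 fold change 0.07, adjusted p = 0.176), scrambled replicate 4, siRNA-1 replicate 2 or siRNA-1 replicate 3 (adjusted p = 0.0893 to 0.113). Between the siRNAs the log2 fold change was −0.96 (SE 0.04, adjusted p = 1.2e-14), a size that 97.0% of all genes did not reach.

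IDI1, the isopentenyl diphosphate isomerase gene, and FDPS, which encodes farnesyl diphosphate synthase, were called in opposite directions by the siRNAs. IDI1 had 87.0, 91.0, 85.7 and 88.9 CPM with siRNA-2, 113, 118, 107 and 108 CPM with siRNA-1, and 88.0, 95.5, 103 and 96.4 CPM with scrambled siRNA. The siRNA-1 libraries stood above all others, and the siRNA-2 and scrambled ranges overlapped. IDI1 stood at −0.12 (SE 0.04, adjusted p = 0.0218) with siRNA-2, 0.22 (SE 0.04, adjusted p = 9.9e-05) with siRNA-1 and −0.34 (SE 0.04, adjusted p = 8.9e-07) between them. FDPS averaged 250 ± 9.70 CPM with siRNA-2, 303 ± 10.1 CPM with siRNA-1 and 273 ± 15.2 CPM with scrambled siRNA (SD, n = 4 each), with log2 fold changes of −0.13 (adjusted p = 0.0105), 0.15 (adjusted p = 0.00313) and −0.28 (adjusted p = 8.4e-06) in the same order of comparisons. The siRNA-2 call was lost without scrambled replicate 3 for both genes (IDI1 −0.08, adjusted p = 0.124, and FDPS −0.09, adjusted p = 0.0670), and for IDI1 also without siRNA-2 replicate 3 (adjusted p = 0.0514). Both intervals overlap others, IDI1 those of IDI2-AS1 and WDR37, and FDPS that of RUSC1-AS1. WDR37 covers 1.73% of the IDI1 exons, and its count is 36.7% of that of IDI1. WDR37 had log2 fold changes of −0.33 with siRNA-2, −0.17 with siRNA-1 and −0.16 between the siRNAs. IDI2-AS1 covers 79.1% of the IDI1 exons, and its count is 90.4% of that of IDI1. Its log2 fold changes were −0.10 with siRNA-2, 0.26 with siRNA-1 and −0.36 between the siRNAs. RUSC1-AS1 covers 57.6% of the FDPS exons, and its count is 98.1% of that of FDPS. Its log2 fold changes were −0.0055 (adjusted p = 0.921), 0.21 and −0.21 in the same order.

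ACAT2, the cytosolic thiolase gene that starts the pathway, averaged 65.1 ± 2.64 CPM with siRNA-2, 75.2 ± 1.90 CPM with siRNA-1 and 74.6 ± 2.57 CPM in scrambled libraries, and fell with siRNA-2 by 0.19 (SE 0.04, adjusted p = 1.4e-04) against scrambled. Its interval shares 1136 bp with that of TCP1, 572 bp with that of SOD2 and 375 bp with that of LOC100129518. The TCP1 count is 297% of that of ACAT2, and the SOD2 count is 228%. TCP1 had log2 fold changes of −0.15 with siRNA-2, 0.14 with siRNA-1 and −0.29 between the siRNAs. SOD2 had −0.34, −0.39 and 0.05 (adjusted p = 0.466) in the same order. MVK, mevalonate kinase, averaged 37.5 ± 2.29, 47.9 ± 2.42 and 44.0 ± 2.64 CPM with siRNA-2, siRNA-1 and scrambled siRNA, with log2 fold changes of −0.23 (SE 0.05, adjusted p = 4.5e-04) with siRNA-2 and 0.12 (adjusted p = 0.0516, or 0.0419 without siRNA-2 replicate 2) with siRNA-1. For ACAT2 and MVK every siRNA-2 library lay below every other library. The MVK interval overlaps that of MMAB, which covers 4.89% of the MVK exons. MMAB had log2 fold changes of −0.55 with siRNA-2 and −0.49 with siRNA-1. GGPS1, whose product makes the geranylgeranyl group for protein prenylation, was lower with each siRNA, by 0.12 (SE 0.04) with siRNA-2 and 0.22 (SE 0.04) with siRNA-1. PMVK, phosphomevalonate kinase, had a log2 fold change of −0.10 (adjusted p = 0.0705) with siRNA-2 and fell by 0.20 (SE 0.05, adjusted p = 8.2e-04) with siRNA-1. Between the siRNAs GGPS1 and PMVK stood at 0.09 and 0.10 (adjusted p = 0.0522 and 0.112). The GGPS1 interval overlaps that of ARID4B, which covers 3.91% of the GGPS1 exons. ARID4B had log2 fold changes of 0.39 with siRNA-2 and 0.36 with siRNA-1. PMVK passed with siRNA-2 without scrambled replicate 1 or 2, siRNA-1 replicate 2 or 3, or siRNA-2 replicate 3 (adjusted p = 0.0229 to 0.0486), and GGPS1 passed between the siRNAs without scrambled replicate 1 or 4, siRNA-1 replicate 3 or siRNA-2 replicate 3 (adjusted p = 0.0162 to 0.0489). MVD, the decarboxylase gene, passed in none of the 3 comparisons, at 50.7 ± 2.13 CPM with siRNA-2, 53.5 ± 2.90 CPM with siRNA-1 and 51.5 ± 4.09 CPM with scrambled siRNA.

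**Figure D2:**
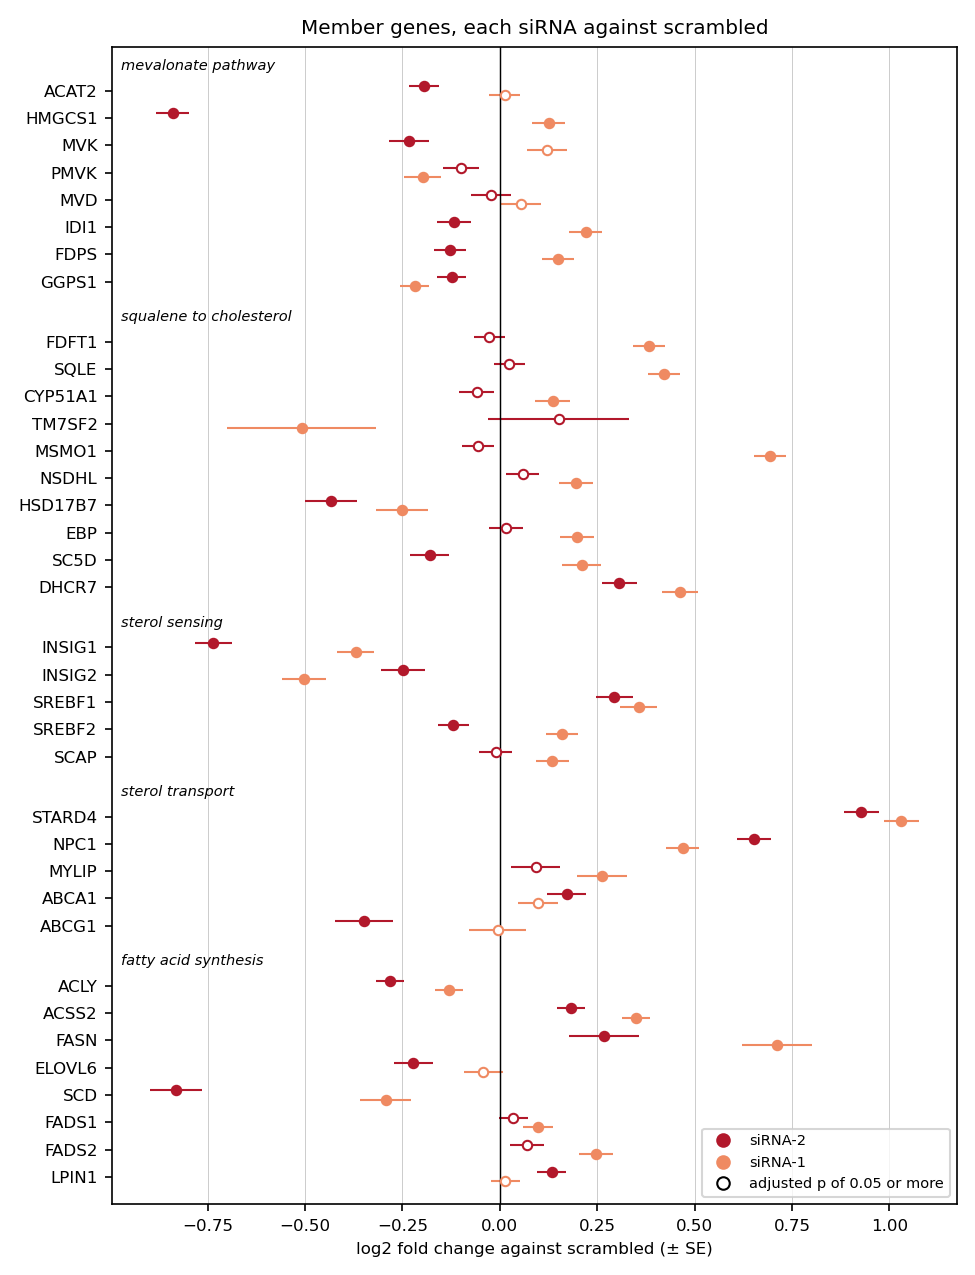
log2 fold change with its SE for the 36 genes, siRNA-2 (dark red) and siRNA-1 (orange) each against the same 4 scrambled libraries, with open circles at an adjusted p of 0.05 or more. HMGCS1, SCD and INSIG1 lie lowest with siRNA-2, at −0.84, −0.83 and −0.74, and STARD4 lies highest with each siRNA, at 0.93 and 1.03.

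From squalene to cholesterol, 1 of 10 genes was higher with siRNA-2 than with scrambled siRNA and 8 of 10 were higher with siRNA-1, and 9 of 10 were lower with siRNA-2 than with siRNA-1. The shares over all genes were 29.9%, 28.6% and 16.8%. MSMO1, a methylsterol oxidase that removes methyl groups from the sterol ring, changed most of these 10 in both comparisons that involve siRNA-1. It had 67.2, 71.0, 68.9 and 74.3 CPM with siRNA-2, 117, 118, 121 and 118 CPM with siRNA-1, and 68.2, 71.9, 77.8 and 74.9 CPM with scrambled siRNA. The siRNA-1 libraries stood apart from all others, and the siRNA-2 and scrambled libraries overlapped. The log2 fold change of MSMO1 with siRNA-2 was −0.06 (SE 0.04, adjusted p = 0.252), and with siRNA-1 it rose by 0.69 (SE 0.04, adjusted p = 3.1e-13), a fold of 1.62. Without scrambled replicate 1 the siRNA-2 value was −0.11 and passed (adjusted p = 0.0347). Between the siRNAs the log2 fold change was −0.75 (SE 0.04, adjusted p = 4.6e-13).

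FDFT1, which encodes squalene synthase, and SQLE, squalene epoxidase, had the same shape. SQLE had 65.3, 70.7, 71.6 and 69.3 CPM with siRNA-2, 89.0, 90.3, 92.6 and 92.8 CPM with siRNA-1, and 63.8, 71.4, 69.4 and 67.8 CPM with scrambled siRNA. FDFT1 had 275, 286, 280 and 280 CPM with siRNA-2, 389, 359, 365 and 379 CPM with siRNA-1, and 274, 304, 297 and 268 CPM with scrambled siRNA. In each gene the siRNA-1 libraries lay above all 8 others, and siRNA-2 overlapped scrambled. With siRNA-2 SQLE stood at 0.02 and FDFT1 at −0.03 (SE 0.04 each, adjusted p = 0.633 and 0.604). With siRNA-1 SQLE rose by 0.42 (SE 0.04, adjusted p = 2.1e-09) and FDFT1 by 0.38 (SE 0.04, adjusted p = 1.3e-08). Between the siRNAs SQLE stood at −0.40 and FDFT1 at −0.41 (SE 0.04 each).

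DHCR7, which encodes the reductase of the last step to cholesterol, was the only gene of the 18 synthesis genes called higher with siRNA-2. It had 258, 269, 265 and 275 CPM with siRNA-2, 300, 272, 302 and 316 CPM with siRNA-1, and 215, 234, 215 and 200 CPM with scrambled siRNA. No library of either siRNA overlapped the scrambled ones, while the siRNAs overlapped each other. DHCR7 stood at 0.31 (SE 0.05, adjusted p = 3.7e-06) with siRNA-2, 0.46 (SE 0.05, adjusted p = 7.1e-09) with siRNA-1 and −0.16 (SE 0.05, adjusted p = 0.0110) between them.

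SC5D, the sterol desaturase before that step, had 19.9, 19.0, 20.5 and 20.0 CPM with siRNA-2, 25.2, 25.9, 27.0 and 26.0 CPM with siRNA-1, and 21.2, 23.1, 23.7 and 22.1 CPM with scrambled siRNA. The 3 groups did not overlap, with scrambled in the middle. SC5D fell with siRNA-2 by 0.18 (SE 0.05, adjusted p = 0.00313) and rose by 0.21 (SE 0.05, adjusted p = 7.8e-04) with siRNA-1, and the siRNAs differed by −0.39 (SE 0.05). HSD17B7, a ketoreductase of sterol demethylation, was lower with each siRNA, at 12.5 ± 1.10 CPM with siRNA-2 and 14.2 ± 0.808 CPM with siRNA-1 against 16.8 ± 1.01 CPM with scrambled siRNA, or −0.43 (SE 0.07) and −0.25 (SE 0.07) on the log2 scale. The siRNAs differed by −0.18 (adjusted p = 0.0403), a call lost without any 1 of 6 libraries, scrambled replicate 4, siRNA-1 replicate 1 or 2, or siRNA-2 replicate 1, 3 or 4 (adjusted p = 0.0595 to 0.194).

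The remaining steps changed by less than a fold of 1.2, except TM7SF2. NSDHL, a dehydrogenase of the demethylation complex, EBP, the sterol isomerase, and CYP51A1, the lanosterol demethylase, had log2 fold changes of 0.06, 0.02 and −0.06 with siRNA-2, and none passed (adjusted p = 0.252, 0.787 and 0.268). With siRNA-1 NSDHL and EBP each rose by 0.20 (SE 0.04), and CYP51A1 rose by 0.14 (SE 0.04, adjusted p = 0.0127). Between the siRNAs they stood at −0.14, −0.18 and −0.20, all called. The CYP51A1 interval overlaps that of AKAP9, which covers 47.2% of the CYP51A1 exons and has 114% of its count. AKAP9 had log2 fold changes of −0.19 with siRNA-2, 0.02 with siRNA-1 and −0.20 between the siRNAs. The siRNA-1 call of CYP51A1 was lost without scrambled replicate 1 or 4 or siRNA-1 replicate 2 or 3 (adjusted p = 0.0601 to 0.129), and the call of NSDHL between the siRNAs without siRNA-1 replicate 3 or 4 or siRNA-2 replicate 1 or 3 (adjusted p = 0.0503 to 0.0737). TM7SF2, a sterol reductase gene at 1.80 ± 0.162 CPM with siRNA-2, 1.14 ± 0.229 CPM with siRNA-1 and 1.62 ± 0.436 CPM with scrambled siRNA, went against the rest. It was lower with siRNA-1 by 0.51 on the log2 scale (SE 0.19, adjusted p = 0.0270), a call lost without scrambled replicate 1 (−0.34), scrambled replicate 2 or siRNA-1 replicate 4 (adjusted p = 0.0508 to 0.134), and higher with siRNA-2 than with siRNA-1 by 0.66 (SE 0.19, adjusted p = 0.00827).

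**Figure D3:**
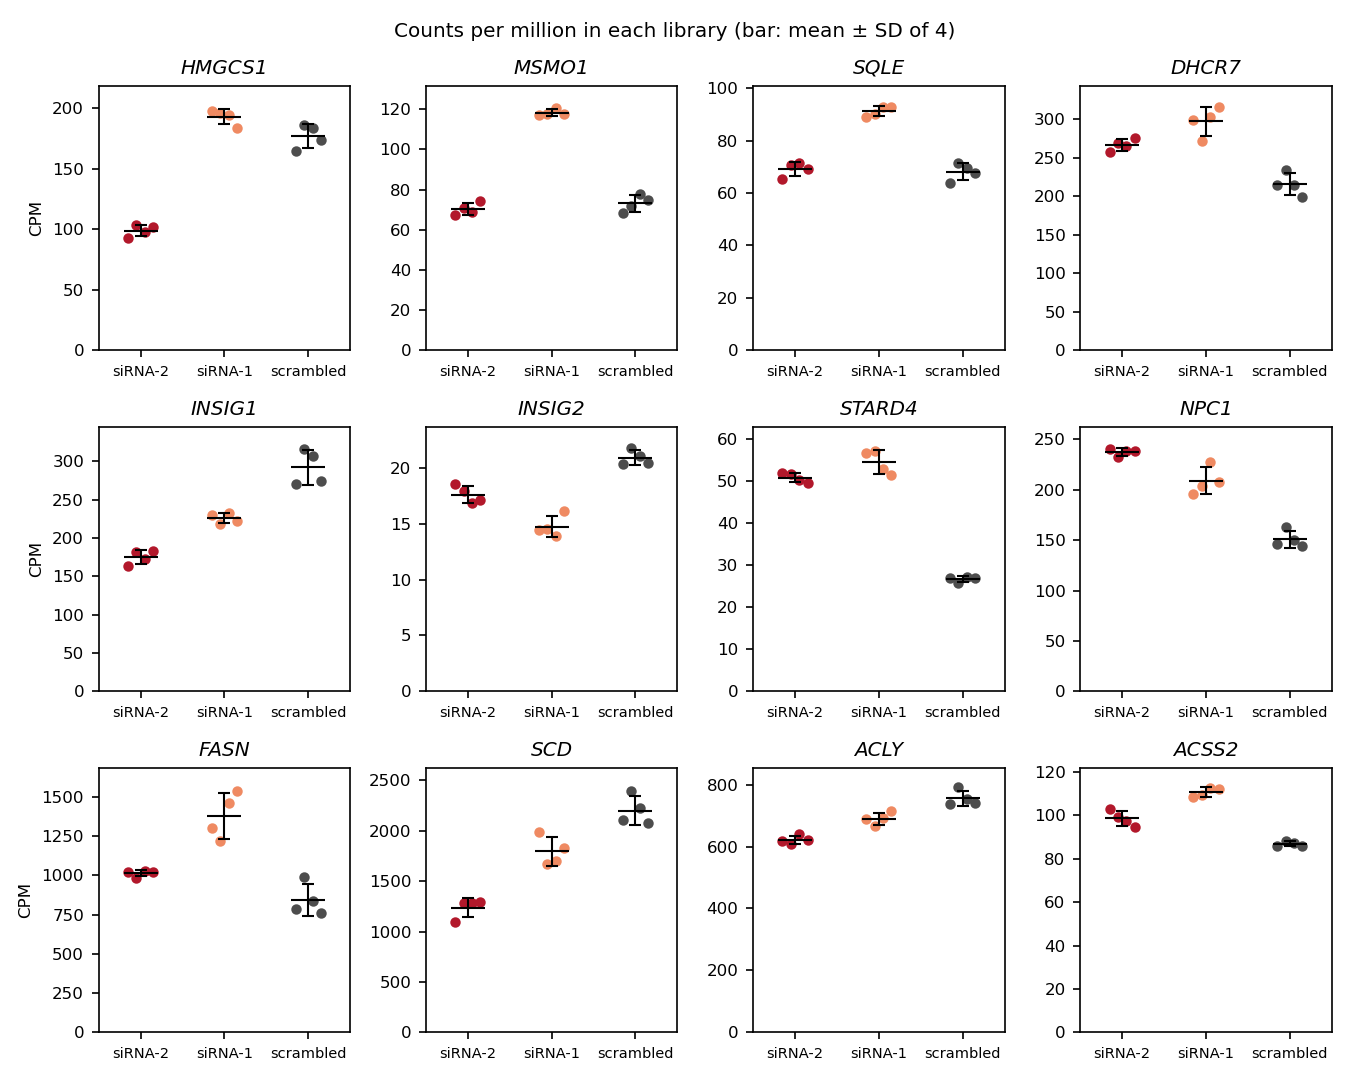
CPM of 12 genes in each library, in the order siRNA-2, siRNA-1 and scrambled, with bars at the mean ± SD of 4 libraries and each vertical axis starting at 0. HMGCS1 is low with siRNA-2 alone, MSMO1 and SQLE are high with siRNA-1 alone, and STARD4 and NPC1 are above scrambled with each siRNA.

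Among the sterol sensors, both INSIG genes were lower with each siRNA while SREBF1 was higher. INSIG1, whose product holds SCAP in the endoplasmic reticulum and which is itself switched on by SREBPs, had 164, 181, 173 and 184 CPM with siRNA-2, 230, 218, 233 and 222 CPM with siRNA-1, and 270, 316, 307 and 275 CPM with scrambled siRNA. The 3 groups did not overlap, with siRNA-2 lowest and scrambled highest. INSIG1 fell with siRNA-2 by 0.74 (SE 0.05, adjusted p = 7.0e-12) and by 0.37 (SE 0.05, adjusted p = 5.9e-07) with siRNA-1, and the siRNAs differed by −0.37 (SE 0.05). INSIG2, the sister gene that sterol regulates less, had 18.5, 17.9, 16.8 and 17.1 CPM with siRNA-2, 14.4, 14.5, 13.9 and 16.1 CPM with siRNA-1, and 20.4, 21.8, 21.0 and 20.4 CPM with scrambled siRNA. Here siRNA-1 was lowest, and again no groups overlapped. INSIG2 fell with siRNA-2 by 0.25 (SE 0.06, adjusted p = 4.2e-04) and by 0.50 (SE 0.06, adjusted p = 3.2e-08) with siRNA-1, and was higher with siRNA-2 than with siRNA-1 by 0.25 (SE 0.06).

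SREBF1, the gene of SREBP-1, which favours fatty acid genes, averaged 435 ± 7.41 CPM with siRNA-2, 455 ± 29.5 CPM with siRNA-1 and 355 ± 26.0 CPM with scrambled siRNA. It rose by 0.29 (SE 0.05, adjusted p = 1.5e-05) and by 0.36 (SE 0.05, adjusted p = 1.3e-06), and the siRNAs did not pass against each other (−0.06, adjusted p = 0.360). Its interval shares 12282 bp with that of RAI1, which covers 96.5% of the SREBF1 exons, has 119% of the SREBF1 count and had log2 fold changes of 0.30 and 0.31. SREBF2, the gene of SREBP-2, which favours sterol genes, had 158, 167, 163 and 166 CPM with siRNA-2, 201, 191, 199 and 202 CPM with siRNA-1, and 169, 192, 182 and 166 CPM with scrambled siRNA. The siRNA libraries did not overlap each other, and each set overlapped scrambled. SREBF2 stood at −0.12 (SE 0.04, adjusted p = 0.0149) with siRNA-2, 0.16 (SE 0.04, adjusted p = 0.00166) with siRNA-1 and −0.28 (SE 0.04, adjusted p = 6.6e-06) between them, and the siRNA-2 call was lost without scrambled replicate 2 (−0.08, adjusted p = 0.0972). SCAP stood at −0.01 (adjusted p = 0.845) with siRNA-2, rose by 0.13 (SE 0.04, adjusted p = 0.00846) with siRNA-1 and stood at −0.15 (adjusted p = 0.00855) between them. Without siRNA-1 replicate 4, the highest SCAP library at 131 CPM, both SCAP calls were lost (adjusted p = 0.0562 and 0.0529). The siRNA-1 call was lost also without scrambled replicate 4 (adjusted p = 0.0707). The SCAP interval overlaps that of PTPN23, which covers 14.7% of the SCAP exons. PTPN23 had log2 fold changes of 0.21 with siRNA-2 and 0.25 with siRNA-1.

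The largest rise of the whole set was in STARD4, which encodes a carrier that moves sterol between membranes and is a known SREBP target. STARD4 had 51.8, 51.5, 50.3 and 49.4 CPM with siRNA-2, 56.5, 57.1, 52.8 and 51.3 CPM with siRNA-1, and 26.9, 25.6, 27.2 and 26.9 CPM with scrambled siRNA. Libraries of the siRNAs overlapped each other and lay far above scrambled. STARD4 rose by 0.93 (SE 0.04, adjusted p = 5.0e-15) with siRNA-2 and by 1.03 (SE 0.04, adjusted p = 8.2e-16) with siRNA-1, folds of 1.90 and 2.04. The siRNAs differed by −0.10 (adjusted p = 0.0739), or −0.13 and past the threshold without siRNA-1 replicate 4 (adjusted p = 0.0306). STARD4 shares 11047 bp with CAMK4, which covers 91.0% of its exons, has 114% of its count and had log2 fold changes of 0.64 and 0.72. It also overlaps 372 bp of STARD4-AS1, whose count is 108% of that of STARD4 and whose log2 fold changes were −0.34 with siRNA-2 and −0.01 with siRNA-1. How reads were divided among these intervals is not stated.

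NPC1, which moves cholesterol out of lysosomes, had 241, 232, 238 and 239 CPM with siRNA-2, 196, 204, 228 and 208 CPM with siRNA-1, and 146, 163, 150 and 145 CPM with scrambled siRNA. The 3 groups did not overlap, with siRNA-2 highest. NPC1 rose by 0.65 (SE 0.04, adjusted p = 2.0e-12) with siRNA-2 and by 0.47 (SE 0.04, adjusted p = 1.1e-09) with siRNA-1, and was higher with siRNA-2 by 0.18 (SE 0.04, adjusted p = 0.00160). Its interval overlaps that of RMC1, which covers 29.3% of the NPC1 exons and whose count is 21.0% of that of NPC1. RMC1 had log2 fold changes of 0.65 with siRNA-2 and 0.60 with siRNA-1. MYLIP, a ubiquitin ligase gene that marks the LDL receptor for degradation, averaged 12.2 ± 0.964 CPM with siRNA-2, 13.7 ± 0.384 CPM with siRNA-1 and 11.5 ± 0.191 CPM with scrambled siRNA. It stood at 0.09 (adjusted p = 0.227) with siRNA-2 and rose by 0.26 (SE 0.06, adjusted p = 0.00106) with siRNA-1. Its call between the siRNAs (−0.17, adjusted p = 0.0393) was lost without any 1 of 8 libraries, namely scrambled replicate 1 or 4, siRNA-1 replicate 1, 2 or 3, or siRNA-2 replicate 2, 3 or 4 (adjusted p = 0.0529 to 0.194).

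The sterol exporters ABCA1 and ABCG1, both targets of the oxysterol receptor LXR, moved in opposite directions with siRNA-2. ABCA1 averaged 91.6 ± 5.20 CPM with siRNA-2, 87.1 ± 4.80 CPM with siRNA-1 and 81.3 ± 5.75 CPM with scrambled siRNA, and rose by 0.17 (SE 0.05, adjusted p = 0.00659) with siRNA-2, a call lost without siRNA-2 replicate 1 (0.12, adjusted p = 0.0503). With siRNA-1 its log2 fold change was 0.10 (adjusted p = 0.110), which passed without scrambled replicate 2 or siRNA-1 replicate 1 (adjusted p = 0.0457 and 0.04997). ABCG1 averaged 8.18 ± 0.635 CPM with siRNA-2, 10.4 ± 0.606 CPM with siRNA-1 and 10.4 ± 0.550 CPM with scrambled siRNA. With siRNA-2 it fell by 0.35 (SE 0.07, adjusted p = 2.6e-04), with all 4 libraries below the scrambled ones, and was lower with siRNA-2 than with siRNA-1 by 0.34 (SE 0.07, adjusted p = 7.9e-04). With siRNA-1 its log2 fold change was −0.01 (adjusted p = 0.956).

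The fatty acid arm split between its enzymes. FASN, fatty acid synthase, was higher with each siRNA, and SCD, the desaturase that makes oleate, was lower with each. FASN had 1018, 984, 1026 and 1024 CPM with siRNA-2, 1302, 1217, 1459 and 1537 CPM with siRNA-1, and 788, 988, 834 and 757 CPM with scrambled siRNA. The siRNA-1 libraries stood above all others, and siRNA-2 overlapped scrambled through scrambled replicate 2. FASN rose by 0.27 (SE 0.09, adjusted p = 0.0257) with siRNA-2 and by 0.71 (SE 0.09, adjusted p = 4.5e-05) with siRNA-1, and the siRNAs differed by −0.45 (SE 0.09, adjusted p = 0.00290). The siRNA-2 call was lost without any 1 of 6 libraries, namely scrambled replicate 1, 3 or 4 or siRNA-2 replicate 1, 3 or 4 (log2 fold change 0.21 to 0.26, adjusted p = 0.0575 to 0.0855).

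SCD had 1092, 1287, 1281 and 1291 CPM with siRNA-2, 1985, 1673, 1701 and 1830 CPM with siRNA-1, and 2104, 2394, 2228 and 2079 CPM with scrambled siRNA. The 3 groups did not overlap, and siRNA-2 was lowest. SCD fell with siRNA-2 by 0.83 (SE 0.07, adjusted p = 3.7e-08), to 0.562 of the scrambled level, and by 0.29 (SE 0.07, adjusted p = 0.00153) with siRNA-1, and the siRNAs differed by −0.54 (SE 0.07, adjusted p = 1.6e-05).

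The suppliers of acetyl-CoA moved in opposite directions. ACLY, which makes it from citrate, had 617, 607, 639 and 623 CPM with siRNA-2, 688, 666, 692 and 714 CPM with siRNA-1, and 736, 791, 754 and 742 CPM with scrambled siRNA. It fell by 0.28 (SE 0.04, adjusted p = 2.1e-07) and by 0.13 (SE 0.04, adjusted p = 0.00310), and the siRNAs differed by −0.15 (SE 0.04). ACSS2, which makes it from acetate, had 103, 99.0, 97.4 and 94.6 CPM with siRNA-2, 108, 109, 113 and 112 CPM with siRNA-1, and 85.7, 88.3, 87.1 and 86.0 CPM with scrambled siRNA. It rose by 0.18 (SE 0.04, adjusted p = 8.4e-05) and by 0.35 (SE 0.04, adjusted p = 5.1e-09), and the siRNAs differed by −0.17 (SE 0.04). In neither gene did any groups overlap. The ACSS2 interval holds part of GSS, which had log2 fold changes of 0.05 with siRNA-2 and 0.20 with siRNA-1.

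ELOVL6, an elongase of saturated chains, averaged 58.3 ± 3.67 CPM with siRNA-2, 66.0 ± 5.22 CPM with siRNA-1 and 68.0 ± 1.18 CPM with scrambled siRNA, and fell with siRNA-2 by 0.22 (SE 0.05, adjusted p = 5.2e-04). Its log2 fold change with siRNA-1 was −0.04 (adjusted p = 0.497). The siRNAs differed by −0.18 (SE 0.05, adjusted p = 0.00735). The polyunsaturated desaturases FADS2 and FADS1 stood at 0.07 and 0.03 with siRNA-2 and did not pass. With siRNA-1 FADS2 rose by 0.25 (SE 0.04, adjusted p = 3.5e-05) and FADS1 by 0.10 (SE 0.04, adjusted p = 0.0311). Between the siRNAs FADS2 stood at −0.18 (adjusted p = 0.00266) and FADS1 at −0.06 (adjusted p = 0.216). They share 13092 bp, and the FADS1 interval also holds exons of FEN1. The FADS1 call was lost without any 1 of 8 libraries, namely scrambled replicate 1 or 4, siRNA-1 replicate 2, 3 or 4, or siRNA-2 replicate 1, 3 or 4 (adjusted p = 0.0848 to 0.207). LPIN1, a phosphatidate phosphatase of triglyceride synthesis, rose by 0.13 (SE 0.04, adjusted p = 0.00384) with siRNA-2 and stood at 0.01 (adjusted p = 0.787) with siRNA-1. It was higher with siRNA-2 than with siRNA-1 by 0.12 (SE 0.04, adjusted p = 0.0158), a call lost without siRNA-1 replicate 3 or 4 or siRNA-2 replicate 2 (adjusted p = 0.0560 to 0.0768).

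**Figure D4:**
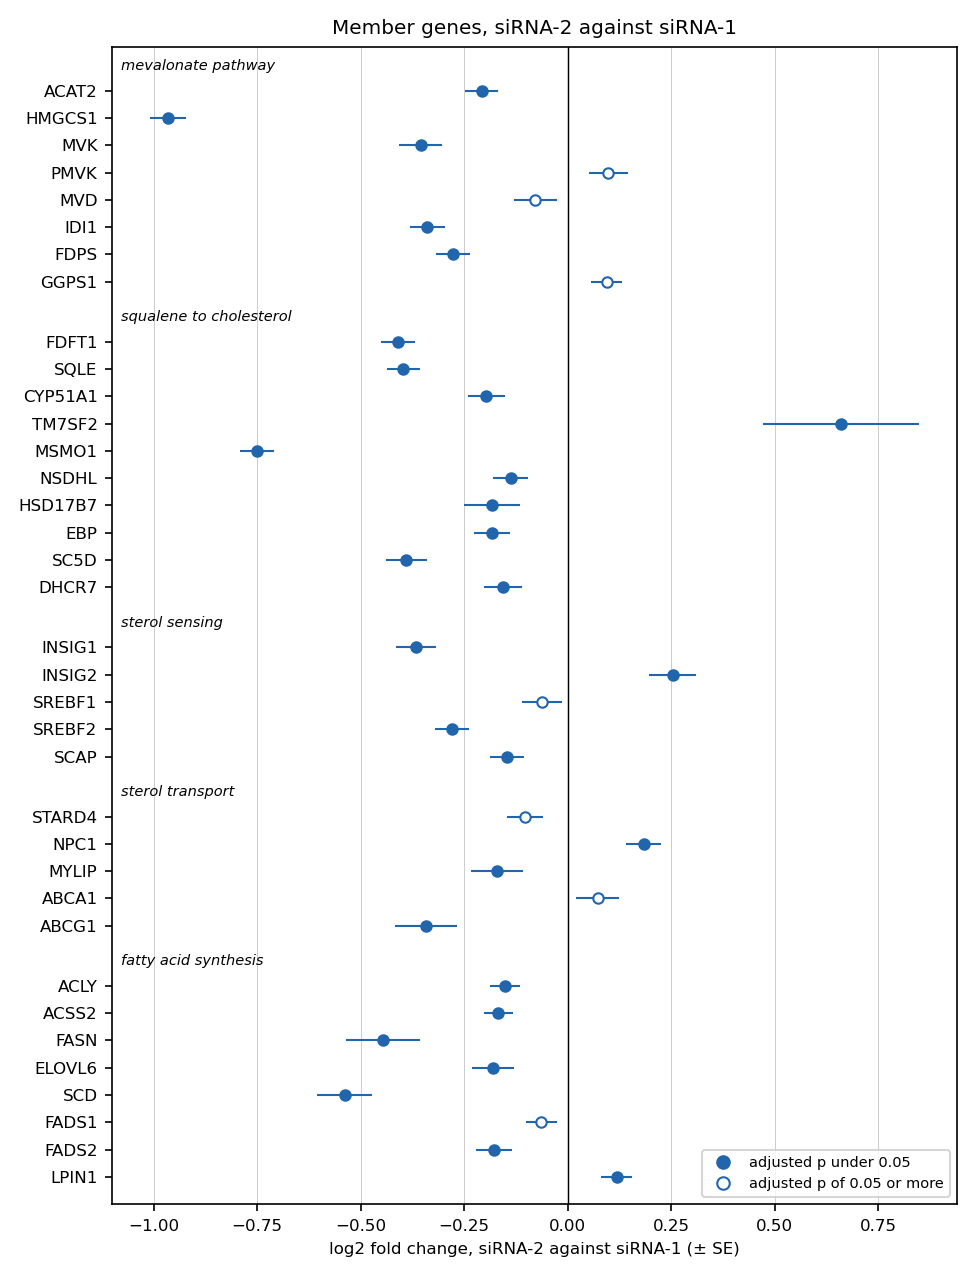
log2 fold change with its SE for siRNA-2 against siRNA-1 in the 36 genes, ordered by role, with open circles at an adjusted p of 0.05 or more. Most points lie left of 0, HMGCS1 farthest at −0.96, and TM7SF2 lies farthest right at 0.66.

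Without the 3 libraries that stand apart, which leaves 3 per group, the sterol synthesis genes gave 1 higher and 10 lower with siRNA-2 against scrambled, 8 higher and 3 lower with siRNA-1 against scrambled, and 2 higher and 13 lower with siRNA-2 against siRNA-1. Of the fatty acid genes, 6 were lower with siRNA-2 than with siRNA-1 and none was higher. Of 24956 genes tested in this setting, 6520 were higher and 6487 lower with siRNA-2, and 5895 higher and 6109 lower with siRNA-1. With siRNA-2 against siRNA-1, 3473 were higher and 3436 lower. Calls lost with siRNA-1 were the smaller ones of HMGCS1 (0.06, adjusted p = 0.322), CYP51A1 (0.07), SC5D (0.13, adjusted p = 0.0586), SREBF2 (0.11, adjusted p = 0.0733), SCAP (0.10), FADS1 (0.06) and TM7SF2 (−0.32). Calls lost with siRNA-2 were FASN (0.22, adjusted p = 0.135) and LPIN1 (0.07), and those lost between the siRNAs were DHCR7 (−0.15, adjusted p = 0.0685), MYLIP (−0.15) and LPIN1 (0.09). PMVK and MSMO1 passed as lower with siRNA-2 (−0.14 and −0.12), and GGPS1 passed as higher with siRNA-2 than with siRNA-1 (0.12). In the other settings, the siRNA-1 calls of HMGCS1 and CYP51A1 were lost with no filter (0.10 and 0.11) and with protein-coding intervals only (0.08 and 0.09), and that of FADS1 in 6 settings. The siRNA-2 call of FASN was lost with no filter (0.24, adjusted p = 0.0831). The HSD17B7 and MYLIP calls between the siRNAs were lost with library totals alone, with no filter and with only the groups compared, and that of HSD17B7 also with a filter of 1 CPM in 4 libraries. PMVK passed as lower with siRNA-2 in 6 further settings, and GGPS1 passed between the siRNAs in 4.

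Further genes around the pathways were counted from lists written down by name, with earlier results of these data known. Of each list the gene with the smallest p in a comparison is given. Over all genes 29.9% were higher and 26.1% lower with siRNA-2 (56.1% in all), 28.6% higher and 24.9% lower with siRNA-1 (53.4%), and 15.8% higher and 16.8% lower with siRNA-2 than with siRNA-1 (32.6%). Of 15 genes that process SREBPs or turn them over, 5 were higher and 6 lower with siRNA-2, 8 were higher and 5 lower with siRNA-1, and 1 was higher and 9 lower with siRNA-2 than with siRNA-1. The called shares were 73.3%, 86.7% and 66.7%, and the median log2 fold changes −0.06, 0.12 and −0.13. SAR1B, a GTPase of the vesicles that carry SCAP, averaged 54.3 ± 1.65 CPM with siRNA-2, 62.7 ± 1.77 CPM with siRNA-1 and 28.8 ± 1.88 CPM with scrambled siRNA, and rose by 0.92 and 1.12 on the log2 scale (SE 0.05 each). SEC24C, the coat protein of those vesicles, was lower with siRNA-2 than with siRNA-1 by 0.35 (SE 0.03).

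Of 15 genes of lipoprotein uptake and endosomal cholesterol egress, 11 were higher and 1 lower with siRNA-2 and 9 higher and 1 lower with siRNA-1, while between the siRNAs 4 were higher and 2 lower with siRNA-2. Against scrambled siRNA the called shares were 80.0% with siRNA-2 and 66.7% with siRNA-1, with median log2 fold changes of 0.31 and 0.24. Between the siRNAs 40.0% were called, against 32.6% of all genes. Over all genes 29.9% were higher and 26.1% lower with siRNA-2, and 28.6% higher and 24.9% lower with siRNA-1. GRAMD1B, which moves sterol from the plasma membrane to the endoplasmic reticulum, averaged 22.2 ± 1.04 CPM with siRNA-2, 17.3 ± 0.905 CPM with siRNA-1 and 11.1 ± 0.481 CPM with scrambled siRNA, a rise of 1.00 (SE 0.06) with siRNA-2. SCARB1, a lipoprotein receptor gene, rose by 0.46 (SE 0.04) with siRNA-1, and LIPA, the lysosomal lipase gene, was higher with siRNA-2 than with siRNA-1 by 0.61 (SE 0.04). Of 9 LXR receptors and further LXR targets, 5 were higher with each siRNA and none was lower, a called share of 55.6% each that is near the background. NR1H3, the gene of LXR alpha, averaged 18.3 ± 0.419 CPM with siRNA-2, 17.6 ± 1.07 CPM with siRNA-1 and 12.8 ± 0.212 CPM with scrambled siRNA, and rose by 0.52 and 0.46 (SE 0.06 each). SMPDL3A, an LXR target, was higher with siRNA-2 than with siRNA-1 by 0.35 (SE 0.10). Of 7 genes of oxysterol synthesis and cholesterol esterification, 4 were higher and 1 lower with siRNA-2, and 3 were higher and 2 lower with siRNA-1, or 71.4% called with each. HSD3B7, a bile acid pathway enzyme, rose by 0.54 and 0.52 (SE 0.07 each), and SOAT1, which esterifies cholesterol, was higher with siRNA-2 than with siRNA-1 by 0.14 (SE 0.04).

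Downstream of the isoprenoids, 2 of 12 genes that use them were higher and 7 lower with siRNA-2, 2 were higher and 4 lower with siRNA-1, and 3 were lower and none higher with siRNA-2 than with siRNA-1. The called shares were 75%, 50% and 25%, against 56.1%, 53.4% and 32.6% of all genes, and the medians −0.14, −0.09 and −0.08. NUS1, a subunit of the enzyme that makes dolichol chains, averaged 42.9 ± 2.60 CPM with siRNA-2, 57.5 ± 1.41 CPM with siRNA-1 and 75.8 ± 4.09 CPM with scrambled siRNA, and fell by 0.82 (SE 0.05) with siRNA-2. ICMT, which methylates prenylated proteins, rose by 0.61 (SE 0.04) with siRNA-1. Of 12 genes that supply citrate, acetyl-CoA and NADPH, 5 were higher and 5 lower with siRNA-2, 4 were higher and 6 lower with siRNA-1, and 3 were higher and 6 lower with siRNA-2 than with siRNA-1, called shares of 83.3%, 83.3% and 75.0%. ACO1, the cytosolic aconitase gene, averaged 29.1 ± 1.44 CPM with siRNA-2, 39.3 ± 1.28 CPM with siRNA-1 and 65.8 ± 5.19 CPM with scrambled siRNA, and fell by 1.18 (SE 0.05) with siRNA-2.

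Beyond fatty acid synthase, 7 of 15 genes of elongation, desaturation and activation were higher and 6 lower with siRNA-2, 9 were higher and 3 lower with siRNA-1, and 2 were higher and 7 lower with siRNA-2 than with siRNA-1. The called shares were 86.7%, 80.0% and 60.0%, against 56.1%, 53.4% and 32.6% of all genes, and the medians 0.09, 0.17 and −0.08. HACD2, a dehydratase of the elongation cycle, fell by 0.80 (SE 0.05) with siRNA-2, and ELOVL2, an elongase of polyunsaturated chains, fell by 0.78 (SE 0.06) with siRNA-1. ELOVL7, another elongase, averaged 11.7 ± 0.718 CPM with siRNA-2, 6.995 ± 0.511 CPM with siRNA-1 and 4.27 ± 0.555 CPM with scrambled siRNA, and the siRNAs differed by 0.74 (SE 0.09). Of 12 genes of glycerolipid synthesis, 3 were higher and 6 lower with siRNA-2, 2 were higher and 5 lower with siRNA-1, and 3 were higher and 4 lower with siRNA-2 than with siRNA-1, called shares of 75.0%, 58.3% and 58.3%. AGPAT3, an acyltransferase, averaged 182 ± 6.21 CPM with siRNA-2, 214 ± 7.75 CPM with siRNA-1 and 284 ± 8.91 CPM with scrambled siRNA, and fell by 0.64 (SE 0.04) with siRNA-2. PCYT1A, which controls phosphatidylcholine synthesis, fell by 0.43 (SE 0.03) with siRNA-1.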

How the data were processed

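RNA was sequenced from 12 A172 libraries, 4 per group. The deposited table holds whole-number counts of reads per interval without normalization, as the authors made it. The submitters' processing notes name Salmon and hg38, and the tool that counted intervals is not stated there or in the labels. No column of per-sample values was left unused. Of 49731 intervals, 962 ultraconserved or random regions and 1999 that reach over 100 kb past their gene were removed, with older names, repeats of the same counts, ribosomal RNA and unmatched intervals over 1 Mb, which left 45011.

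edgeR 4.0.16 (R 4.3.3, limma 3.58.1) was run on the deposited counts with TMM factors, filterByExpr (minimum count 10, total 15) and a robust quasi-likelihood fit (group as sole term, all 12 libraries), in two-sided tests adjusted by Benjamini-Hochberg over 24922 genes at 0.05. SE is the log2 fold change over the root of F. CPM uses TMM-scaled library sizes, and levels per kilobase use exons of GENCODE v29. The fitting was tested on simulated data. Alternatives were DESeq2 1.42.0, its size factors in edgeR, library totals, 2 other filters, protein-coding intervals, only the groups compared, a replicate block and fewer libraries. Every gene of the set is named, and from each further list the gene with the smallest p per comparison, except 1 result that is not reported here. The members and lists were chosen with earlier results of these data known. Python 3.11.15 with numpy 2.4.6, pandas 2.3.3 and matplotlib 3.10.9 served for tables and figures. Promoters come from RefSeq on GRCh38.p14, and 32 of 37 listed genes had an entry.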

Additional observations from a re-analysis of the deposited data

Results flagged for a closer look

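Among 108 groups of 4 libraries (36 genes in 3 groups), 3 held a library whose gap to its nearest neighbour exceeded Dixon's critical share of the group's range at 95%, where chance gives about 1 in 20 groups. For SCD, siRNA-2 replicate 1 had 1092 CPM against 1281 to 1291 CPM in the other siRNA-2 libraries. For SREBF1, siRNA-2 replicate 3 had 424 CPM against 438 to 440 CPM. For MVD, siRNA-2 replicate 3 had 47.5 CPM against 51.5 to 52.2 CPM.

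For 5 genes the siRNAs were called in opposite directions against the same scrambled libraries, lower with siRNA-2 and higher with siRNA-1, and the test of siRNA-2 against siRNA-1 passed. The log2 difference, siRNA-2 minus siRNA-1, was −0.96 for HMGCS1, −0.39 for SC5D, −0.34 for IDI1, −0.28 for FDPS and −0.28 for SREBF2. In each of these genes all 4 siRNA-2 libraries lay below all 4 siRNA-1 libraries. The IDI1, FDPS and SREBF2 intervals overlap others, among them those of IDI2-AS1, RUSC1-AS1 and SHISA8 in that order. Reads in the shared stretches cannot be told apart.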

How the results depend on the processing

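Over the settings other than leaving out 1 library, 901 of 972 values for single genes kept their direction and their side of the threshold, 31 fell short of it, 13 passed it and 27 changed sign, and the cause of these changes was not tested. Sterol synthesis genes called higher with siRNA-2 than with siRNA-1 numbered 2 in place of 1 with library totals alone, 1 CPM in 4 libraries, protein-coding intervals, DESeq2 and without the 3 libraries that stand apart (GGPS1 is the added gene). Without those 3 libraries, fatty acid genes called higher numbered 1 in place of 3 with siRNA-2 and 0 in place of 1 with siRNA-2 against siRNA-1. The sign changes were all in values that did not pass. With siRNA-1, ACAT2 was −0.0048 with DESeq2 size factors and with DESeq2, −0.0086 with library totals, −0.011 with no filter and with 1 CPM, −0.029 with protein-coding intervals, −0.0067 with only the groups compared and −0.030 without the 3 libraries. LPIN1 was −0.0036, −0.0067, −0.010, −0.0094, −0.028, −0.0057 and −0.020 in the same settings, with 1 CPM given after no filter. With siRNA-2, EBP was −0.0040 with DESeq2 size factors, −0.0063 with no filter, −0.014 with protein-coding intervals, −0.010 with only the groups compared, −0.051 without the 3 libraries and −0.0039 with DESeq2. SQLE was −0.0050 with protein-coding intervals, −0.0015 with only the groups compared and −0.042 without the 3 libraries, where NSDHL was −0.0045 and FADS1 −0.010.

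Leaving out each library in turn kept 1201 of 1296 values for single genes, 54 fell short of the threshold, 14 passed it and 27 changed sign. The sign changed, without passing, for ACAT2 (−0.027 to 0.036), ABCG1 (−0.065 to 0.037) and LPIN1 (−0.027 to 0.032) with siRNA-1, and for MVD (−0.069 to 0.032), FDFT1 (−0.068 to 0.0051), SQLE (−0.022 to 0.048), EBP (−0.021 to 0.035) and SCAP (−0.041 to 0.014) with siRNA-2. Between the siRNAs, sterol synthesis genes called higher numbered 1 to 2 and fatty acid genes called higher 0 to 1, through GGPS1 and LPIN1.

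Correlations of same-numbered libraries' deviations over 12 pairs lay between −0.047 and 0.040, none above 0.1, and 2 of 24 best matches were to the own number. No shared deviation of same-numbered libraries was seen, but such correlations cannot tell whether those samples were handled together. With the replicate block, 13932 genes were called with siRNA-2, 13210 with siRNA-1 and 8029 between the siRNAs, against 13980, 13317 and 8118 without it, and the call of FASN with siRNA-2 was lost (0.27, adjusted p = 0.0613). Each listed gene had 1 interval, so the longest in place of the shortest gave no value. TM7SF2, at 42 to 100 reads per library, is the gene most limited by depth.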
